A study of Mus musculus with 2756 samples.

Results

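Fabp7 and Dbi encode small cytosolic lipid carriers of radial glia, and the data described here are their read counts in single cells of the developing mouse neocortex. They were 2 of the 16441 genes in the deposited count table. Both were chosen from earlier results on the same cells, by their level and by the share of cells with a count in each cluster, injection day and collection time. Their levels are therefore given as a description, with no test. Tests were run only on other genes, from lists of lipid metabolism, Dbi partners and candidate regulators of Fabp7.

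The study asked how apical progenitors and their daughter neurons change with developmental time. FlashTag, a fluorescent dye that enters cells dividing at the ventricular surface, was given to embryos on 1 of 4 days, E12, E13, E14 or E15 (E for embryonic day). Collection followed after 1, 24 or 96 h, so that 2756 cells fell into 12 conditions. The tissue was the putative primary somatosensory cortex, and the labelled cells with the highest dye signal were sorted. The labels give no genotype, strain, animal or litter, so each condition was 1 sample. Every p-value below therefore rests on a spread between conditions, which may be technical. For BP against AP and N1d against BP at 24 h, it is how far class differences varied between the 4 injection days. For the other fits it is the spread between all 12 conditions that the model leaves. The authors' 15 clusters were grouped into 6 classes by the first part of their names. These were apical progenitors (AP, the radial glia that line the ventricle), basal progenitors (BP, which divide away from it), neurons typical of day 1 or day 4 after labelling (N1d and N4d), interneurons (IN) and astrocytes (Astro).

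FABP7, the brain-type fatty acid binding protein, carries long-chain polyunsaturated fatty acids such as docosahexaenoic acid through the cytosol, and it is a standard marker of radial glia and of immature astrocytes. DBI binds acyl-CoA esters, the activated form of fatty acids, and delivers them to oxidation and to membrane lipid synthesis. It is also known as the diazepam binding inhibitor, because DBI and its peptides act on GABA-A receptors, and as a ligand of the mitochondrial translocator protein. Fabp7 expression in the cortex has been linked to Pax6, to Notch signalling through RBPJ and to nuclear factor I (NFI) proteins.

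Fabp7 lies on chromosome 10 at 57784881 to 57788450 on the plus strand, and Dbi on chromosome 1 at 120113280 to 120121078 on the minus strand (GRCm38, GENCODE vM21). No other gene of that annotation overlaps either of them. The promoters are shown because the genes had similar patterns across the classes. Each window runs from 250 bases before to 50 bases after a transcript start, as RefSeq gives it on GRCm38.p6. RefSeq lists 2 such starts for Dbi, with overlapping windows, and the downstream one is printed. Capitals mark matches to TGGGAA (the RBPJ core), CCAAT (the CCAAT box) and TTGGC (the NFI core), read on either strand and merged where they overlap.
Fabp7 promoter (chr10:57784673-57784972, plus strand): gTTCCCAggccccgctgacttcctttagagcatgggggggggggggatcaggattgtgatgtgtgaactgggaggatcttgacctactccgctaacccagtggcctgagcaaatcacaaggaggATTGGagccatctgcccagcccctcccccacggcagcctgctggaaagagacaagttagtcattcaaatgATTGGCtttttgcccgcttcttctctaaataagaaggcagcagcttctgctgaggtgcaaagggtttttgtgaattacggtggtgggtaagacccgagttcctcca
Dbi downstream promoter (chr1:120120870-120121169, minus strand): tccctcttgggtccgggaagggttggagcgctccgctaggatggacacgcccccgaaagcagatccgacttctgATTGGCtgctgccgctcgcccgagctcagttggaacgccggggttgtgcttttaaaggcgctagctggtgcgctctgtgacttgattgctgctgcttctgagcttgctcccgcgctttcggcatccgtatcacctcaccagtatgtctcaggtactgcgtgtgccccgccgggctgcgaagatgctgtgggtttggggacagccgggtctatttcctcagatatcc

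Both windows held the run GATTGGCT, in which a reversed CCAAT box and an NFI core overlap. It began 57 bases before the start in Fabp7, further upstream before the printed Dbi start, and at the first transcribed base of the upstream Dbi start. This run was picked after the sequences were seen, and 3.84% of the 32851 promoter windows of the same length in the table hold it on either strand. The component motifs are common: 37.4% of windows hold CCAAT, 46.7% hold TTGGC and 25.6% hold TGGGAA. Fabp7 also had a reversed RBPJ core at the far end of the window and another reversed CCAAT box between them. None of the member windows held the full NFI palindrome (0.0365% of windows), the octamer ATTTGCAT (1.74%), the GC box GGGCGG (35.7%), TATAAA (13.6%) or the PPAR direct repeat (0.0396%). The GC content was 54% for Fabp7 and 60.3% for the printed Dbi window, against a median of 52.7% (middle 50% of windows 45.7 to 61.7%). A match describes letters in a window and not binding.

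The conditions held 52273735 to 99041690 counts, and a cell had a median of 328909. For AP and N4d the class names went with their markers. Summed over 12 apical progenitor markers, AP cells at 1 h had 3176 to 6312 CPM (counts-per-million, over the summed cells) and N4d cells at 96 h had 131.7 to 659 CPM, while 8 neuron markers gave at most 501 CPM in those AP cells and 6422 to 8274 CPM in N4d. Astro cells had 14376 CPM over 9 astrocyte markers, and also 12343 CPM over the apical progenitor markers, above every AP sum. BP cells at 24 h had 2518 to 5785 CPM over 8 basal progenitor markers, above AP and N1d of the same day. Their neuron markers summed higher than that in E12 (3326 against 2518 CPM) and lower on the other days. The 8 BP cells of E14 had 3462 CPM over the apical progenitor markers, against 5495 CPM in AP of that condition. The titles carry 6 run codes, and no code spans 2 collection times: time and run cannot be told apart. At 1 h the pairs of days under a shared code were E12 and E14, and E13 and E15. At the later times they were E12 and E13, and E14 and E15.

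Both genes were high in AP cells, lower in basal progenitors, lower again in neurons and highest in astrocytes. The mean Fabp7 level over the 4 injection days was 2395 CPM ± 934 (SD, n = 4) in AP at 24 h, 1032 ± 791 in AP at 1 h, 547 ± 208.8 in BP at 24 h, 324 ± 190.3 in N1d at 24 h, 193.3 ± 189.7 in N4d at 96 h and 137.2 ± 147.8 in IN at 96 h. Astro cells of E15 at 96 h, 54 cells in a single sample, stood at 10070 CPM. Neighbours in this order overlapped in their range over the 4 days, while AP at 24 h (1512 to 3556 CPM) lay above every BP, N1d, N4d and IN value among them. For Dbi the order of the means was the same, at 3060 ± 689, 1823 ± 963, 1506 ± 645, 326 ± 70.9, 176.6 ± 132.9 and 138.8 ± 107.3 CPM, with 5850 CPM in Astro. Here BP overlapped with AP at 1 h, and BP did not overlap with N1d, whose highest day (407 CPM) was below the lowest BP day (894 CPM).

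**Figure D1:**
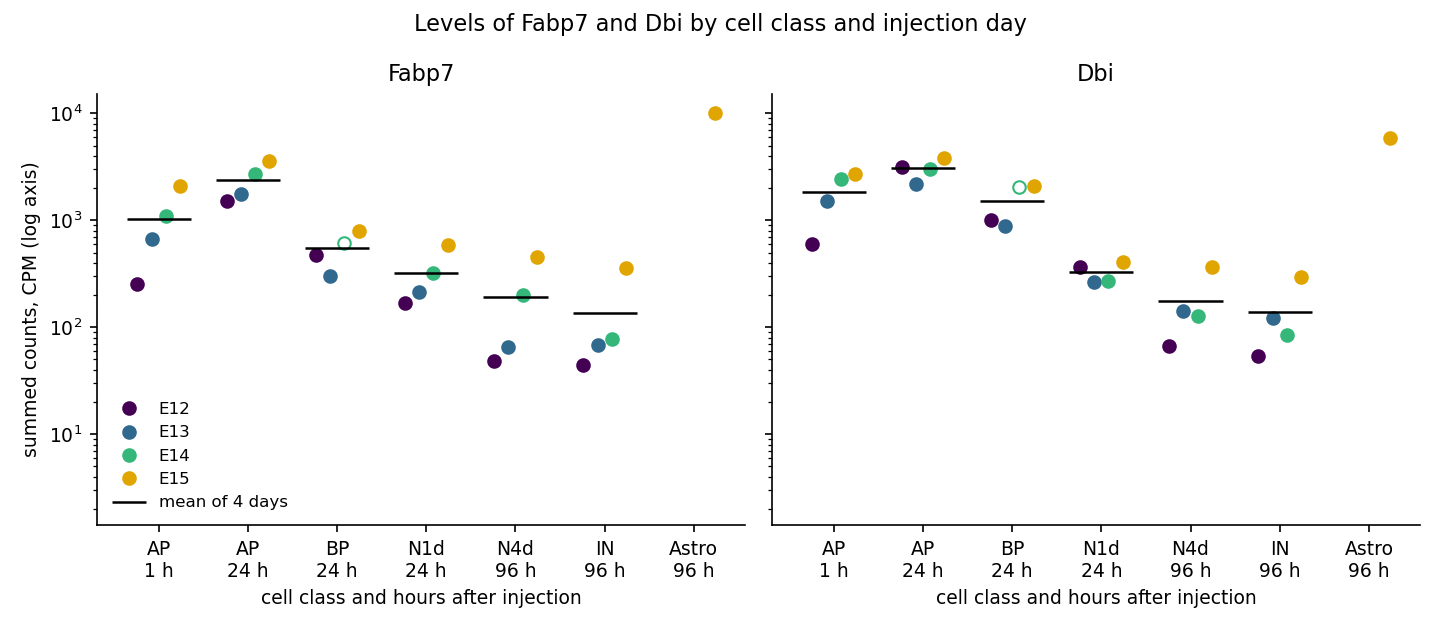
Level of Fabp7 (left) and Dbi (right) as CPM of summed counts on a log axis, for each class and collection time, with 1 point per injection day and a bar at the mean of 4 days; the open point is a sum of 8 cells. For each injection day AP lies above the neuron classes for both genes, E15 is the highest day in every class, and the single Astro sum is highest at 10070 CPM for Fabp7 and 5850 CPM for Dbi.

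In newly labelled AP cells both genes were higher at each later injection day. Fabp7 stood at 256.5 CPM for E12, 668 for E13, 1107 for E14 and 2098 for E15, and Dbi at 607, 1512, 2437 and 2734 CPM in the same order. E12 was the lowest and E15 the highest day for each. Fabp7 was thus 8.18-fold and Dbi 4.50-fold higher in E15 than in E12. On the log2(CPM + 1) scale the steps between successive days were 1.38, 0.73 and 0.92 for Fabp7, a slope of 0.98 per day with an SD of 0.33 between the 3 steps. Those of Dbi were 1.31, 0.69 and 0.17, a slope of 0.72 with an SD of 0.58, so its last step was the smallest. Without E12 the Dbi slope was 0.43 per day. Within a run code the order was the same: Fabp7 was 4.31-fold higher in E14 than in E12 and 3.14-fold higher in E15 than in E13, and Dbi 4.01-fold and 1.81-fold higher.

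Nearly all AP cells had a Dbi count on every day, and some E12 cells had no Fabp7 count. At 1 h a Fabp7 count was seen in 79% of E12 AP cells (exact 95% binomial interval 72.3 to 84.7%), 96.0% of E13, 98.3% of E14 and 100.0% of E15 cells. After thinning every cell to 50000 counts the shares were 67.4, 86.9, 93.2 and 98.6%, with 0 to 3 cells left out per day. A Dbi count was present in at least 99.4% of AP cells on every day. The median AP cell had 58.9, 436, 852 and 1839 CPM of Fabp7 from E12 to E15, and 492, 1241, 2090 and 2639 CPM of Dbi. For E12 the Fabp7 median was below the summed level of 256.5 CPM, and the middle 50% of cells ran from 4.46 to 319 CPM. For E15 the middle 50% ran from 835 to 2813 CPM, a smaller spread as a ratio and a larger one in CPM. The binomial interval covers the sampling of cells within a condition only, and not the spread between samples. The middle 50% describes cells and is no error interval. The values were treated as reads, which need not be independent molecules.

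The day order also held inside clusters of apical progenitors. In AP.mid1 cells at 1 h Fabp7 was 625 CPM in E13, 1019 in E14 (63 cells) and 1675 in E15 (27 cells). AP.mid2 had 823, 1501 and 2621 CPM and AP.late 382, 617 and 1873 CPM in the same order, from 15 cells a sum or more. Within a day Fabp7 was highest in AP.mid2, and AP.late was lowest in E13 and E14 and between the others in E15. Dbi differed: it was highest in AP.mid1, at 1598, 2737 and 3246 CPM, and was 1490, 2154 and 2418 CPM in AP.mid2 and 1287, 2104 and 2822 CPM in AP.late. AP.early, which held most of the E12 cells, stood at 257.2 CPM for Fabp7 and 614 for Dbi. Clusters were built by the authors from these cells' genes, so these contrasts are descriptions.

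AP cells at 24 h had more of both transcripts than AP cells at 1 h of the same injection day. They were few, with 14, 22, 32 and 44 cells from E12 to E15. Fabp7 stood at 1512, 1780, 2732 and 3556 CPM, which was 5.89-, 2.66-, 2.47- and 1.70-fold above the 1 h level. Dbi stood at 3157, 2183, 3036 and 3862 CPM, or 5.20-, 1.44-, 1.25- and 1.41-fold above it. Set against AP cells of the same embryonic age instead (24 h after an injection day against 1 h after the next), Fabp7 was 2.26-, 1.61- and 1.30-fold higher. Dbi was 2.09-fold higher at E13, 0.896-fold at E14 and 1.11-fold at E15. The collection time goes with the run code in each of these pairs. At 96 h only 3 to 5 cells a day were still AP, with 3282 to 9079 CPM of Fabp7 and 2542 to 5426 CPM of Dbi.

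At 24 h, where AP, BP and N1d cells can be compared within each condition, both genes were lower in N1d than in AP, with different shares of the difference at each step. From AP to N1d, Fabp7 was lower by 2.97 ± 0.26 and Dbi by 3.22 ± 0.20 on the log2 scale (SD, n = 4 days), a ratio of AP to N1d of 7.92 ± 1.31 and 9.40 ± 1.34. For Fabp7 most of this lay between AP and BP. Its BP level was 476 CPM in E12 (78 cells), 305 in E13 (47 cells), 609.5 in E14 (8 cells) and 798 in E15 (35 cells), against 1512 to 3556 CPM in AP. The difference was -2.13 ± 0.36, followed by -0.84 ± 0.48 from BP to N1d. All 4 BP sums were below all 4 AP sums.

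Dbi was also lower in BP than in AP on every day, with 1004, 894, 2032 and 2092 CPM in BP from E12 to E15, but the difference was -1.10 ± 0.47. From BP to N1d the difference was -2.12 ± 0.65, and N1d stood at 363, 264.5, 268.6 and 407 CPM. The first step made up 52.9, 83.2, 69.9 and 83.5% of the whole log2 difference for Fabp7, and 53, 42.3, 16.6 and 27.3% for Dbi. In these class sums E12 was thus alike for the genes, and E13, E14 and E15 differed. The E14 value rests on 8 BP cells. The mix of BP clusters also differed between days. BP.late cells were 14 of 78 BP cells in E12, 22 of 47 in E13, all 8 in E14 and 26 of 35 in E15. In the BP.late cells of E12, Fabp7 stood at 142.1 CPM, below N1d of that day at 170 CPM. The part of this mix in the step shares was not tested. At 1 h in E15, the other condition with over 10 BP cells, 32 BP cells held 499 CPM of Fabp7 and 1864 CPM of Dbi against 2098 and 2734 CPM in AP of the same condition.

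**Figure D2:**
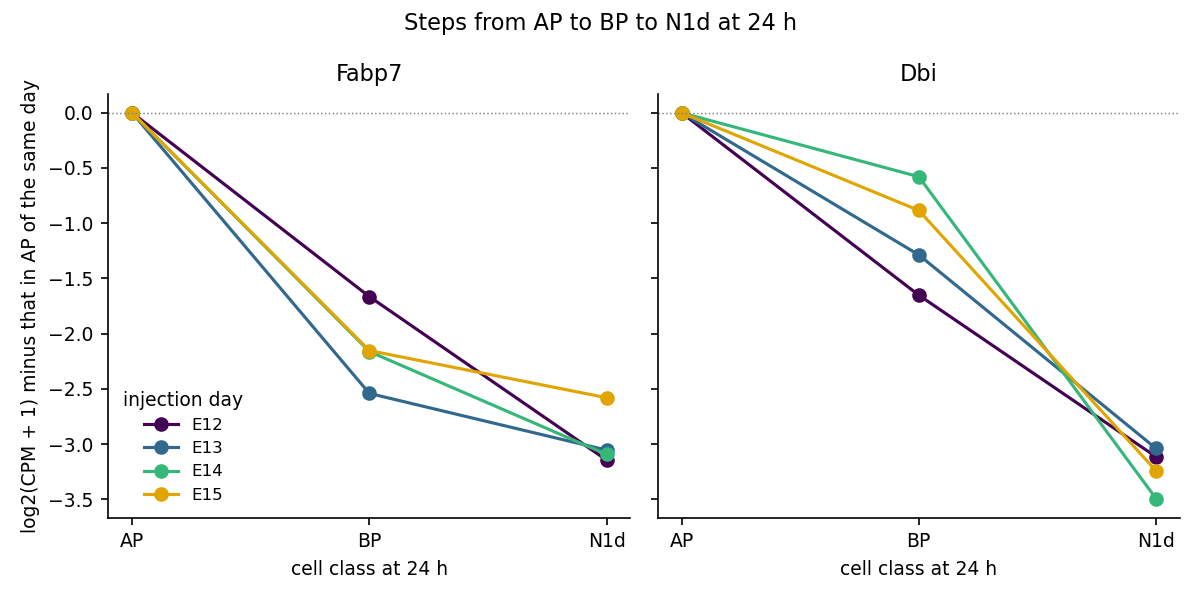
Difference in log2(CPM + 1) from AP cells of the same injection day, for AP, BP and N1d cells at 24 h, Fabp7 left and Dbi right, with 1 line per injection day. Fabp7 lines drop mainly from AP to BP (mean -2.13) and Dbi lines mainly from BP to N1d (mean -2.12), except for E12, whose lines are alike.

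Within the basal progenitors, BP.early cells at 24 h had 534 CPM of Fabp7 in E12 and 447 in E13, while BP.late cells had 142.1 and 110.3 CPM. On E15 the values were 906 CPM from 9 BP.early cells and 757 CPM from 26 BP.late cells. Dbi in BP.early and BP.late was 1044 and 774 CPM in E12, 1031 and 706 in E13, and 1888 and 2172 in E15. The gap between the clusters was thus wider for Fabp7 than for Dbi in the early days and was not seen in E15 for Dbi.

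Neurons kept a day order in Fabp7. N1d cells at 24 h had 170 CPM in E12, 213.3 in E13, 319 in E14 and 594 in E15. N4d cells at 96 h had 48.3, 66, 199.8 and 459 CPM. Each later day was higher than the day before in both classes, and E15 was 3.49-fold above E12 in N1d and 9.50-fold in N4d. Between days that share a run code the ratio was 1.25 and 1.86 in N1d (E13 to E12, E15 to E14) and 1.37 and 2.30 in N4d. The step between the run codes, from E13 to E14, was 1.50-fold in N1d and 3.03-fold in N4d.

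Dbi in neurons followed the day less. N1d cells had 363 CPM in E12 and 407 in E15, with 264.5 and 268.6 CPM between them. N4d cells had 66.8, 142.7, 126.9 and 369.8 CPM, so E13 and E14 were in reversed order and E15 was highest. E15 was 1.12-fold above E12 in N1d and 5.53-fold in N4d.

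The share of N4d cells with a Fabp7 count was 45.1% in E12 (interval 36.8 to 53.6%), 56.7% in E13 (49.7 to 63.6%), 84.4% in E14 (78.7 to 88.98%) and 99.2% in E15 (95.8 to 100.0%). Thinned to 50000 counts per cell, with no cell left out, it was 27.1, 31.2, 55.5 and 90%. For Dbi the shares were 47.9, 72.6, 75.8 and 94.6%, and 21.5, 49.5, 51.2 and 81.5% after thinning. The median N4d cell had 0 CPM of Fabp7 in E12, 2.08 in E13, 15.4 in E14 and 273.6 in E15, and the median Dbi values were 0, 7.23, 8.12 and 114.5 CPM. In E12 to E14 the sums therefore came from a minority of cells: 16.7, 17.3 and 28.9% of N4d cells had at least 100 CPM of Fabp7, a level chosen after the values were seen, against 65.4% in E15. Median depth per cell was 385490, 402028, 268578 and 307548 counts from E12 to E15, so the 2 days with the larger shares were the shallower ones.

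**Figure D3:**
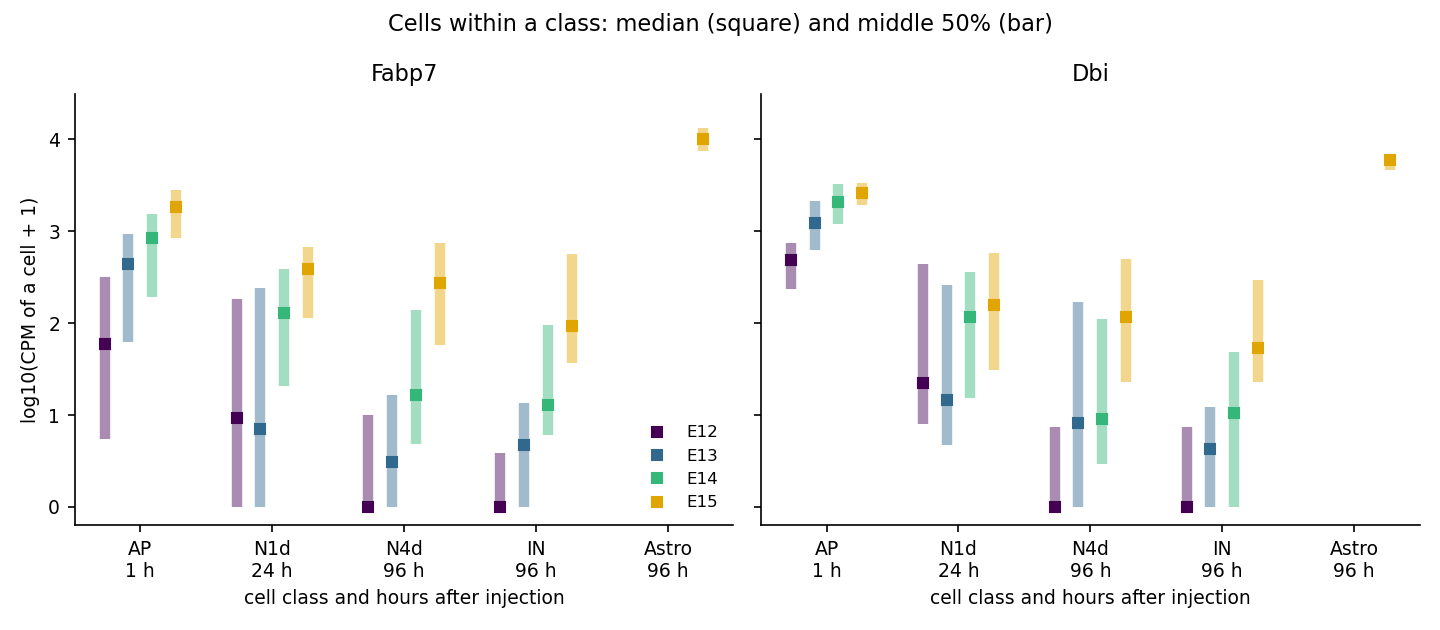
Distribution over single cells of log10(CPM + 1) for Fabp7 (left) and Dbi (right), with the median as a square and the middle 50% of cells as a bar, by class, collection time and injection day. The median Fabp7 level of N4d cells goes from 0 CPM in E12 to 273.6 CPM in E15, and AP cells have narrower bars for Dbi than for Fabp7.

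Markers of progenitors and astrocytes were also highest in E15 neurons. Over the 12 apical progenitor markers N4d cells had 131.7, 233.1, 251.4 and 659 CPM from E12 to E15, with 5, 5, 8 and 11 of them at 10 CPM or more. N1d cells had 565, 419.7, 387 and 670 CPM, so the sum was lower from E12 to E14 while Fabp7 was higher. Over the 9 measured astrocyte markers N4d cells had 414, 384, 393 and 931 CPM, with only E15 apart, and N1d cells had 359, 303.2, 349.8 and 501.5 CPM. Most of the N4d sum came from Cst3, a cystatin (328, 325, 299.6 and 580.5 CPM). In E15 N4d cells Sparcl1 was at 157.6 CPM, the apolipoprotein Apoe at 101.4, the glutamate transporter Slc1a2 at 38.1, Bcan at 25.7, the connexin Gja1 at 13.8, Aldh1l1 at 9.83, Ntsr2 at 3.17 and the filament protein Gfap at 0.545. Slc1a3, the glutamate transporter of radial glia, was at 209.6 CPM there and 23.3 CPM in E12. Neuron markers summed to 8274, 7296, 6971 and 6422 CPM in N4d. The part of these signals in the neuronal levels of Fabp7 and Dbi was not tested.

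Within N4d, the cluster N4d.late2 had 71.4, 222.7, 242.6 and 719 CPM of Fabp7 from E12 to E15, from 29 to 70 cells. N4d.early2 had 43.6, 34.5, 326.5 and 253.3 CPM, and N4d.late1 129.5 CPM in E14. E15 was the highest day in N4d.late2. In N4d.early2 E14 was higher than E15, although its median cell had 10.3 CPM against 132.3 CPM in E15. Dbi in N4d.late2 was 49.4, 265.2, 177.1 and 577 CPM, and in N4d.early2 76.4, 111.5, 151.4 and 213.9 CPM.

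Interneurons, which enter the cortex from the ventral forebrain, had low levels except in E15. Fabp7 in IN cells at 96 h stood at 44.6 CPM in E12 (85 cells), 67.97 in E13 (44 cells), 78.4 in E14 (30 cells) and 358 in E15 (35 cells). Dbi stood at 53.97 CPM in E12, 84.04 in E14 and 294.1 in E15, and E13 was 2.28-fold above E12. On the CPM scale E15 was apart from the other days for Fabp7. The share of IN cells with a Fabp7 count was 32.9, 65.9, 80 and 97.1%, and after thinning 14.1, 31.8, 66.7 and 85.7%. Apical progenitor markers summed to 279.4, 365, 279.2 and 964 CPM in the same cells, and their part in the E15 value was not tested.

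Astrocytes had the highest level of both genes. The 54 Astro cells of E15 at 96 h held 10070 CPM of Fabp7 and 5850 CPM of Dbi, every cell had a count of each, and the middle 50% of cells ran from 7477 to 13438 CPM and from 4706 to 6825 CPM. In the same condition Fabp7 was 21.9-fold above N4d and 28.1-fold above IN, and Dbi 15.8-fold and 19.9-fold. Compared with AP cells of E15 at 24 h, Fabp7 was 2.83-fold and Dbi 1.51-fold higher. The few Astro cells of the other days had similar levels, at 9951 CPM of Fabp7 in 1 cell of E12, 14432 in 2 cells of E13 and 11329 in 7 cells of E14. Their Dbi levels were 5709, 10380 and 5264 CPM. There is no replicate of the E15 sample.

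Over all cells of the lineage (AP, BP, N1d and N4d together), Fabp7 was at 248.7, 649.5, 1024 and 1766 CPM at 1 h from E12 to E15, at 365, 401, 882 and 1373 CPM at 24 h and at 155.3, 197.7, 381 and 555 CPM at 96 h. The 3 ranges overlapped. From 1 h to 24 h the mean difference was -0.18 ± 0.53 on the log2 scale, higher at 24 h in E12 and lower on the other days. Without E12 that difference was -0.42 and without E13 -0.01. From 24 h to 96 h it was -1.19 ± 0.12, with every day lower. Dbi was at 591, 1468, 2308 and 2473 CPM at 1 h and at 771, 613, 968 and 1602 CPM at 24 h, and its highest value at 96 h was 519 CPM in E15, below every 24 h value. For Dbi the differences were -0.69 ± 0.77, lower on 3 of 4 days (-1.05 without E12), and -1.73 ± 0.41, lower on all 4 days.

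The levels of the genes went together over classes. Over the 29 class sums of at least 10 cells, log2(CPM + 1) of Fabp7 and Dbi had a Pearson r of 0.92 and a Spearman rho of 0.91, and r was 0.85 over the 20 sums without AP and Astro. Sums of a condition share a run code and both genes were chosen from these levels, so these are descriptions. Among cells of a single class and condition, over at least 22 cells, r ranged from 0.12 to 0.56. It was 0.12 to 0.27 in AP cells at 1 h (at least 120 cells a day), 0.50 in AP cells of E15 at 24 h (44 cells, where Spearman's rho was 0.17), 0.55 in N4d cells of E15 (130 cells) and 0.56 in Astro cells (54 cells). The ratio of Fabp7 to Dbi counts was 0.422 in AP at 1 h in E12 and 0.767 in E15. It was 0.268 in the E15 basal progenitors at 1 h and 0.341 to 0.474 in BP at 24 h. In N1d at 24 h the ratio was 0.468, 0.806, 1.19 and 1.46 from E12 to E15, and in Astro 1.72. The 2 genes' transcripts differ in length, so only changes of the ratio between groups can be read.

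**Figure D4:**
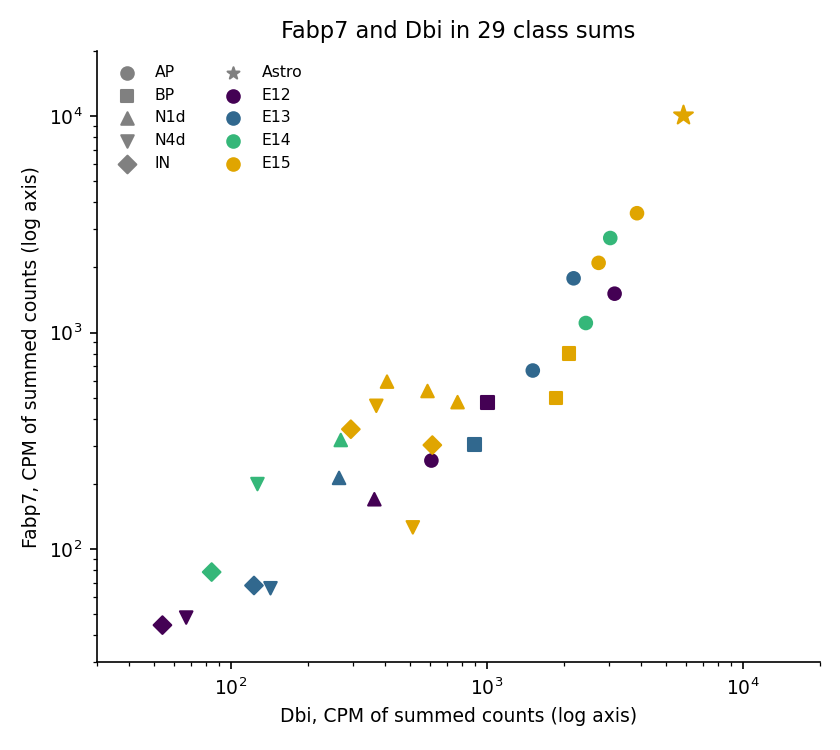
Fabp7 against Dbi as CPM of summed counts on log axes, for 29 sums of at least 10 cells; shapes give the class and colours the injection day. The points lie along a line (Pearson r 0.92 on the log2 scale), with the Astro sum at the top. BP sums had a ratio of Fabp7 to Dbi of 0.268 to 0.474, a range that also held AP at 1 h in E12, E13 and E14. The lowest ratio was 0.2455, in N4d cells of E15 at 1 h.

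Among 3991 genes whose mean over those sums reached 50 CPM, the gene most like Fabp7 by Pearson r was Dbi (0.92). It was followed by Rgcc (0.92), the glycolytic enzyme Aldoc (0.91), the metallothioneins Mt2 (0.90) and Mt1 (0.89), Pea15a (0.89), Ndrg2 (0.87), Vamp3 (0.86), Slc1a3 (0.85) and Fstl1 (0.85). For Dbi the order was Phgdh (0.94), an enzyme of serine synthesis, Mt1 (0.93), Fabp7, the intermediate filament Vim (0.92), Gng5 (0.91), the Hedgehog mediator Gli3 (0.91), Aldoc (0.91), Psat1 (0.91), which follows Phgdh in serine synthesis, Pax6 (0.90) and Vamp3 (0.90). Aldoc, Mt1 and Vamp3 were on both lists. Fabp7 and Dbi were both chosen from these same levels, so their ranks on each other's list are a description. The first place of Dbi also depended on the measure. By Spearman's rho Mt2 came before Dbi (0.93 against 0.91), and without the AP sums Dbi was at rank 3 by Pearson r. By class mean, Pax6 and Gng5 were still at 416 and 572 CPM in BP against 767 and 701 CPM in AP at 24 h, while Rgcc and Mt2 were at 28.7 and 101.5 CPM in BP against 216.8 and 549 CPM in AP. Slc1a3 and Rgcc had their highest level in Astro (3888 and 444 CPM).

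Other cytosolic lipid carriers had other patterns across the classes. Of 21 listed fatty acid, retinoid and acyl-CoA binding proteins, 13 were in the table and 10 passed the filter for the fits between times. Fabp5, the epidermal-type fatty acid binding protein, was broadly present: its class means ran from 433 CPM in AP at 24 h to 806.5 CPM in N1d, and Astro cells had 494 CPM. Its change was 0.55 ± 0.23 (log2 ± SE) from 1 h to 24 h and -0.35 ± 0.23 from 24 h to 96 h, neither past the threshold (edgeR adjusted p 0.114 and 0.293). Its mean was higher in N1d than in AP while Fabp7 was lower. Fabp5 has a processed pseudogene, Fabp5l2, and how reads shared with it were counted is not given in the sources used here.

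Fabp3, the heart-type protein, had its highest class mean in N4d. It was under 3 CPM in every AP sum, 1.98 to 6.50 CPM in N1d and 50.9, 48.4, 54.3 and 41.5 CPM in N4d from E12 to E15, and it rose by 4.06 ± 0.99 from 24 h to 96 h (edgeR adjusted p 0.0104). Acbd3, an acyl-CoA binding domain protein of the Golgi, also rose (0.85 ± 0.22, adjusted p 0.0143). Both calls held in all 17 alternatives run. For scale, edgeR called 24.2% of the 10210 tested genes in that contrast, 11.7% higher and 12.5% lower, and 5 of the 10 binding proteins.

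Among the carriers, 3 fell from 24 h to 96 h, including Eci2 and Scp2. Eci2, a peroxisomal enoyl-CoA isomerase with an acyl-CoA binding domain, fell by 1.20 ± 0.25 (edgeR adjusted p 0.00447) over all lineage cells together. Its class mean (± SD over days) was 138.7 ± 34.2 CPM in N1d and 56.1 ± 6.95 in N4d, a difference not tested by itself. Scp2, the sterol carrier protein, fell by 0.63 ± 0.17 (adjusted p 0.0159), but did not pass without E14 at 96 h, where the change was -0.52.

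The other listed carriers were low or even. Acbd5 and Acbd6, of peroxisomes and of the cytosol, had class means of 34.1 to 76.2 and 58.4 to 86.9 CPM in AP, BP and neurons. The retinoic acid binding proteins Crabp1 and Crabp2 reached 54.1 CPM in N1d of E12 and 46.6 CPM in AP of E12, and were at 0 and 1.04 CPM in the same classes of E15. Acbd7 and Rbp7 had class means of at most 5.20 CPM, and Acbd4 of at most 22.0 CPM. In the 1 h to 24 h fit edgeR called none of the 10 carriers (1 at an unadjusted p under 0.05, 0 by DESeq2), against 19.2% of all tested genes (11.4% higher, 7.76% lower).

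**Figure D5:**
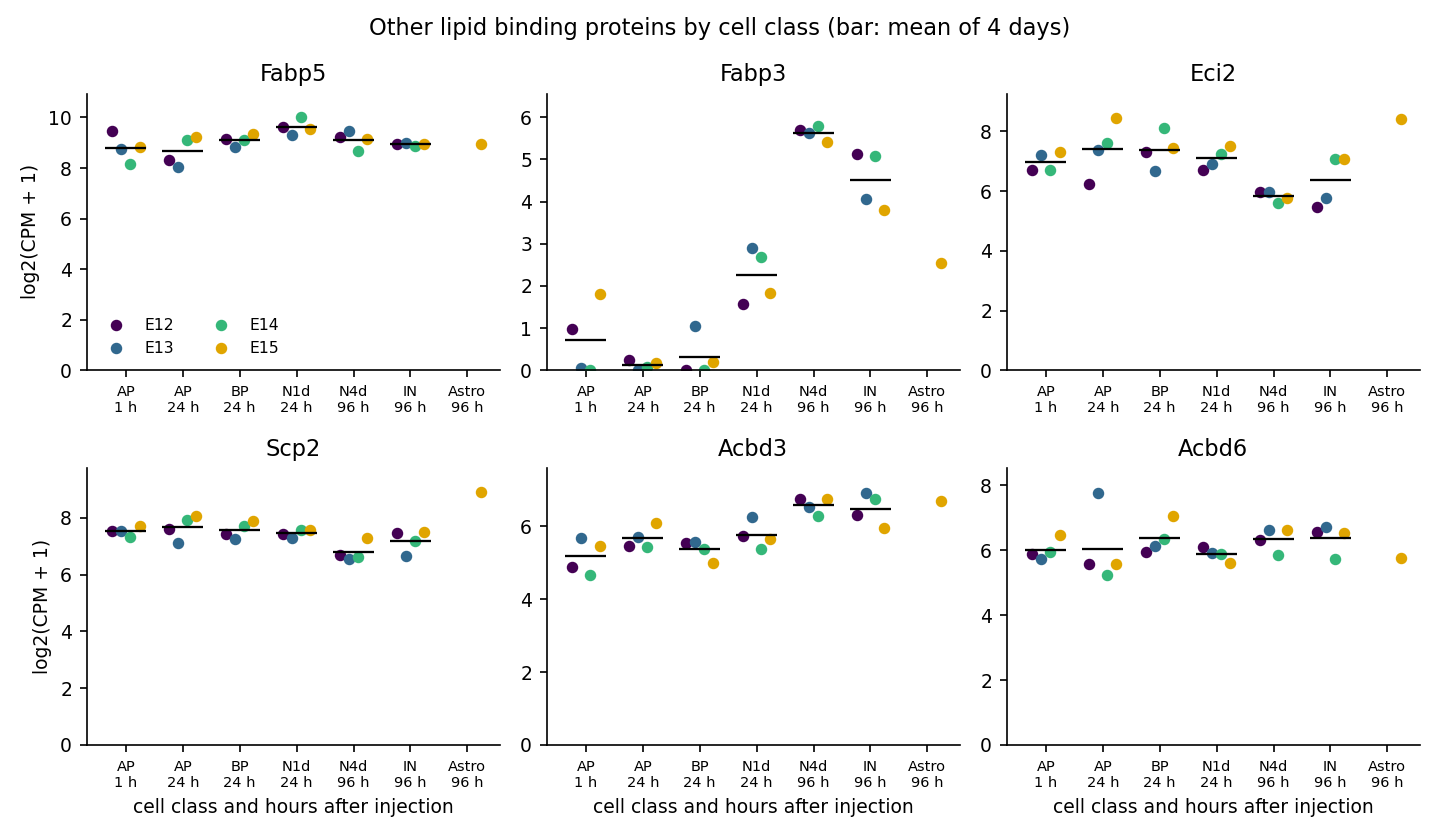
Levels of 6 other lipid binding proteins as log2(CPM + 1) by class and collection time, with 1 point per injection day and a bar at the mean of 4 days. Fabp3 is near 0 in AP and reaches 41.5 to 54.3 CPM in N4d, Fabp5 is present in every class, and the mean of Eci2 is lower in N4d than in AP.

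Few lipid genes passed for injection day in AP cells. For the day slope in AP at 1 h, 1.03% of 10195 genes passed, 0.785% upward and 0.245% downward. Of all listed genes tested, 1 passed, Apoe, the apolipoprotein of astrocytes (1.73 ± 0.34 per day, edgeR adjusted p 0.0416; 3.32, 6.57, 35.98 and 108.9 CPM from E12 to E15). That call was lost in 10 of 17 alternatives, among them without E12, E13, E14 or E15 at 1 h and with the run code as a block, with slopes of 1.54 to 2.00 where it was lost. Clu, another apolipoprotein, had a slope of 1.17 ± 0.29 (adjusted p 0.112). Fabp5 had -0.24 ± 0.14 (0.636). The median slope was 0.12 over the listed genes and 0.01 over all genes. In simulated data of this size, 52% of slopes of 1 per day and 7% of slopes of 0.5 were recovered.

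Enzymes of fatty acid use changed in a few members. Of 22 tested genes of fatty acid oxidation, 5 fell and 0 rose from 24 h to 96 h (22.7%, near the 24.2% of all genes). They included Acaa2, the mitochondrial thiolase of the last step (-1.78 ± 0.37, edgeR adjusted p 0.00445), which held in all alternatives. Hadh (-2.20 ± 0.74, adjusted p 0.0449) lost its call without E13 at 1 h, any 24 h sample or E12 or E13 at 96 h (-2.35 to -1.98). Eci1 (-1.35 ± 0.39, adjusted p 0.0227) lost it without E12 or E15 at 24 h or E14 or E15 at 96 h, and within the main classes (-1.74 to -1.07). From 1 h to 24 h, 1 of the 22 fell, the peroxisomal transporter Abcd3 (-0.92 ± 0.27, adjusted p 0.0292). It did not pass without E14 at 1 h or without E13, E14 or E15 at 24 h (-0.94 to -0.76). Cpt1a, the gate of mitochondrial oxidation, had changes of -1.53 ± 0.60 and -1.47 ± 0.61 with adjusted p of 0.0916 and 0.0981.

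Of 16 genes of fatty acid synthesis, desaturation and elongation, 2 rose and 3 fell from 24 h to 96 h, 31.2% against 24.2% of all tested genes. Acly, which makes cytosolic acetyl-CoA, fell by 1.22 ± 0.15 (edgeR adjusted p 0.000149), and Acaca, which makes malonyl-CoA from it, rose by 0.86 ± 0.19 (adjusted p 0.00662). Elovl4, an elongase of very long chains, rose by 1.41 ± 0.37 (adjusted p 0.0151), and was at 1.30 and not past the threshold without E15 at 24 h. Srebf1 fell by 1.09 ± 0.38 (adjusted p 0.0496), a call lost without any 1 of the 12 samples (-1.29 to -0.73). From 1 h to 24 h, Fasn (-0.71 ± 0.20, adjusted p 0.0219), the desaturase Scd2 (-0.51 ± 0.16, adjusted p 0.0426) and Tecr (0.55 ± 0.14, adjusted p 0.015) passed, 18.8% of the list against 19.2% of all tested genes. Fasn did not pass without E12 or E15 at 24 h (-0.72 and -0.64). Scd2 did not without E12 or E13 at 1 h, E12, E14 or E15 at 24 h, or E12 or E15 at 96 h (-0.56 to -0.40), and Tecr not without E12, E13 or E14 at 1 h or E12 or E14 at 24 h (0.46 to 0.50). Scd2 also fell from AP to BP at 24 h (-0.71 ± 0.12, adjusted p 0.019), a call lost without E12, E13, E14 or E15 (-0.80 to -0.66). In that contrast 1.00% of 9969 genes passed, 0.672% higher and 0.331% lower.

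Uptake and nuclear receptor genes gave few calls, while the small droplet list had a larger share called from 24 h to 96 h than all genes. In the list of uptake and acyl-CoA synthetases, Acot7, a brain acyl-CoA thioesterase, rose by 1.39 ± 0.28 from 24 h to 96 h (edgeR adjusted p 0.00348) and Mfsd2a, a transporter of docosahexaenoic acid in its lysolipid form, fell by 1.94 ± 0.57 (adjusted p 0.0259), of 11 tested. Mfsd2a did not pass without E12 or E13 at 24 h, without E12, E13 or E15 at 96 h, or within the main classes (-1.93 to -1.65). From 1 h to 24 h none of these 11 passed by edgeR, 6 had an unadjusted p under 0.05 and 3 passed by DESeq2. Of all 10210 tested genes, edgeR called 19.2% there, and 3357 had an unadjusted p under 0.05. Of 6 droplet genes 1 rose and 2 fell from 24 h to 96 h. That is 50% of the list, against 24.2% of all tested genes (11.7% rose and 12.5% fell). The one that rose was Lpin1, a phosphatidate phosphatase (1.40 ± 0.47, adjusted p 0.0442). It did not pass without E12, E13 or E15 at 24 h or E12, E13 or E14 at 96 h, among others (0.99 to 1.52). Neither of 2 tested lipid-sensing nuclear receptors passed between times by edgeR or DESeq2, with 1 at an unadjusted p under 0.05 from 24 h to 96 h.

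Lipoprotein receptors rose with collection time. From 1 h to 24 h, 3 of 10 genes of lipoprotein handling and lipid export rose, among them Lrp8, a reelin and lipoprotein receptor (1.51 ± 0.24, edgeR adjusted p 0.000933), and Lrp1 (1.23 ± 0.25, adjusted p 0.00449). From 24 h to 96 h, Lpl, lipoprotein lipase, rose by 4.11 ± 0.77 (adjusted p 0.0024) and Vldlr, the other reelin receptor, by 2.75 ± 0.46 (adjusted p 0.0011). These 4 calls held in all 17 alternatives, and no gene of the list fell. The share called was 30% and 20% of the list, against 19.2% and 24.2% of all genes.

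Among GABA-A receptor subunits, on which DBI peptides act, Gabra2 and Gabrb2 rose from 24 h to 96 h. Of 9 tested GABA-A receptor, translocator and channel genes, 3 rose from 1 h to 24 h, and 4 rose and 1 fell from 24 h to 96 h. That is 33.3% and 55.6% of the list, against 19.2% and 24.2% of all tested genes. Gabra2, a GABA-A receptor subunit, rose by 3.55 ± 0.84 from 24 h to 96 h (edgeR adjusted p 0.00909), and Gabrb2 by 7.22 ± 1.89 (adjusted p 0.0197), a fitted value of a gene near 0 at 24 h whose call was lost without E14 or E15 at 24 h (5.96 and 6.96). Stard3, a cholesterol carrier of late endosomes in the same list, rose by 1.53 ± 0.23 and then fell by 2.16 ± 0.23 (adjusted p 0.000597 and 6.66e-05). The mitochondrial channels Vdac1, Vdac2 and Vdac3 had changes between -0.23 and 0.43 and passed in neither contrast. The median change of the list was 1.17 and 1.89, against 0.00 and -0.03 over all genes.

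Candidate regulators of Fabp7 changed in both directions. All 18 were tested: 3 rose and 7 fell from 1 h to 24 h, and 4 rose and 9 fell from 24 h to 96 h. Of all tested genes 11.4% rose and 7.76% fell in the first interval, and 11.7% rose and 12.5% fell in the later one. Factors of the progenitor state were among those that fell. From 1 h to 24 h these included Sox2 (-2.21 ± 0.42, edgeR adjusted p 0.00281) and Notch1 (-1.78 ± 0.31, adjusted p 0.00149), and from 24 h to 96 h Pax6 (-2.17 ± 0.25, adjusted p 0.00011) and Hes1, a Notch target (-2.35 ± 0.32, adjusted p 0.000314). The Hes1 call was lost when only the main class of each time was compared (-1.71). Erbb2, a neuregulin co-receptor, also fell from 1 h to 24 h (-2.44 ± 0.79, adjusted p 0.0454), with the call lost without E12, E14 or E15 at 1 h, without E13, E14 or E15 at 24 h and in 3 other alternatives (-3.69 to -2.14).

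The 3 NFI genes rose from 1 h to 24 h, Nfib by 1.25 ± 0.20, Nfix by 1.20 ± 0.25 and Nfia by 0.81 ± 0.19 (edgeR adjusted p 0.000828, 0.0049 and 0.0103). From 24 h to 96 h Nfia fell by 1.52 ± 0.19 (adjusted p 0.00018). Erbb4, a neuregulin receptor, rose by 7.87 ± 1.96 (adjusted p 0.0116), a fitted value of a gene near 0 at 24 h. The POU factor Pou3f2 rose by 1.36 ± 0.39 (adjusted p 0.0228, lost without E12 or E13 at 24 h, without E12 at 96 h and within the main classes, at 1.01 to 1.33).

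Between AP and BP, the step at 24 h with the larger Fabp7 difference, none of the 17 regulators tested passed by edgeR. Of them 8 had an unadjusted p under 0.05 and 7 passed by DESeq2. Of all 9969 tested genes, edgeR called 1.00%, DESeq2 called 6.98%, and 1231 had an unadjusted p under 0.05. The count of 0 in 17 is thus near the background of the edgeR call only. In simulated data edgeR recovered 27% of log2 changes of 2 in this contrast, so a count of 0 cannot show that the regulators were unchanged. Hes1 and Notch2 had -2.96 ± 0.66 and -2.85 ± 0.64 there (edgeR adjusted p 0.0677 for each) and Pax6 -0.96 ± 0.28 (0.15). From BP to N1d, the step at 24 h with the larger Dbi difference, edgeR called 3.44% of all genes (1.14% higher, 2.30% lower). In that step Sox2 fell by 2.97 ± 0.38 (edgeR adjusted p 0.00226), as did Pax6 (-2.28 ± 0.28, adjusted p 0.00194) and Notch1 (-2.80 ± 0.51, adjusted p 0.0143). Nfib rose by 1.24 ± 0.15 (adjusted p 0.00194). Notch1 had -2.77 and did not pass without E15.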

How the data were processed

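Single cells were sequenced after capture on microfluidic circuits, with full-length cDNA and paired reads, per the labels' protocols. The authors deposited raw read counts per gene and cell. The submitters' processing notes name TopHat2 2.0.13, UMI-tools and the build GRCm38; the counting tool, the annotation, the cell filters and whether molecular identifiers were used are not given in the sources used here. Column totals were 0.987 to 1 times the labelled read numbers, so the values were treated as reads.

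Counts were summed over the cells of each class and condition and given as CPM. Shares of cells carry exact 95% binomial intervals and were recomputed after thinning each cell to 50000 counts. Sums of under 10 cells are named as such. They were left out of the Fabp7 to Dbi ratios and of the correlations, but the 8 BP cells of E14 at 24 h enter the means, steps and fits at 24 h. Differences are on the log2(CPM + 1) scale. The members and gene lists were chosen with earlier results of these data known, so the values of Fabp7 and Dbi are a description with no test.

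Other genes were tested with edgeR 4.0.16 (quasi-likelihood, TMM scaling, genes with at least 10 CPM in at least 3 sums, Benjamini-Hochberg adjustment over all tested genes, threshold 0.05) in R 4.3.3. The contrasts were 24 h against 1 h and 96 h against 24 h over AP, BP, N1d and N4d cells together (injection day as covariate), the day slope in AP at 1 h, and BP against AP and N1d against BP at 24 h (injection day as block). IN and Astro cells stayed out of the fits. Alternatives were DESeq2 1.42.0, its size factors, no filter, equal weight of cells, the run code as a block, only the main class of each time (AP, N1d, N4d), and each sample left out. From each list and contrast, up to 3 called genes per direction with a mean of at least 10 CPM were named by size of change; genes outside that rule (Fabp5, Cpt1a, Clu, the Vdac genes, Notch2) were added after their values were seen. The fits were tested on simulated counts. Some results of the listed genes are not reported here.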

Additional observations from a re-analysis of the deposited data

Results flagged for a closer look

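Fabp7 in interneurons at 96 h was 357.9 CPM in E15, against 44.61 to 78.4 CPM on the other 3 days. It is listed because a single day lay far from the others: the gap to the nearest day was 0.892 of the whole range of the 4 days. That gap was taken in CPM, which weighs high values more than the log2 scale used for the differences. On the log2 scale it was not screened. Such gaps were screened in 12 groups of 4 days, and 1 was large enough to be listed; chance lists about 1 in 20. Fabp7 was chosen from these same levels, so the gap is a description and not a test. In the same E15 cells the apical progenitor markers summed to 964 CPM and the astrocyte markers to 799 CPM, both the highest of the 4 days.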

How the results depend on the processing

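No paired analysis was possible because the labels give no replicate numbers that tie conditions together and each condition is 1 sample; this concerns replicate numbers only, since the class contrasts at 24 h carried the injection day as a block in the fit. None of the results changed direction under the alternatives run. The share of tested genes called was 31.9% in place of 19.2% for 24 h against 1 h when only the main class of each time was used. For the AP day slope it was 3.36% by DESeq2, 0.292% without the filter and 0.324% with the run code as a block, in place of 1.03%, and 0.576 to 1.25% with a sample left out. For BP against AP it was 6.98% by DESeq2 (54.6% of calls higher, against 67%) and 0.367% without the filter, in place of 1.00%, and 0.0211 to 0.627% with a day left out. For N1d against BP it was 10.3% by DESeq2, in place of 3.44% (43.1% of calls higher, against 33.2%), and 0.749 to 1.95% with a day left out. Without the filter the median change of all genes in N1d against BP was 0.22 in place of 0.06. The Fabp7 difference from 24 h to 96 h was -1.03 as a mean over cells, in place of -1.19. The other 39 values of the members under such settings moved by less than 1 SD. All 40 with a sample left out did so too, but apart from the AP day slopes this outcome was fixed beforehand. Leaving 1 day out cannot move a mean over days by as much as the SD of those days. For these differences the 1 SD limit therefore cannot show whether they depend on a single day. Of 48 named calls, 28 passed in every alternative run. Few cells in a sum (8 BP cells in E14, 14 AP cells in E12 at 24 h) and 1 sample a condition limit the precision.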
